A study of Mus musculus with 3 samples.

Results

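The promoters of the genes that encode RNA polymerase II (Pol II), its general initiation factors and Mediator were followed in ATAC-seq, which maps open chromatin, of cells from isolated mouse islets of Langerhans. Members were the protein-coding autosomal genes with symbols Polr2 and a letter (12 genes of Pol II), Gtf2a to Gtf2h (13 genes of TFIIA, TFIIB, TFIIE, TFIIF and TFIIH) and Med and a number (28 genes of Mediator), 53 of 21275 protein-coding autosomal genes in all. The groups were WT islets, labelled wild type, and islets with Taf4 KO taken 1 week or 5 weeks after its inactivation, with 1 library per group. The labels give the strain as C5LBl6 for the libraries, and no age. Per the study's methods, Taf4 was inactivated through floxed alleles and a tamoxifen-inducible Cre-ERT2 driven by the insulin promoter, so the deletion was made in beta cells while whole islets were measured. The study describes its controls as Taf4+/+ mice that carried the same Cre and also received tamoxifen, while the label of the WT library says only wild type. The question was which promoters of the basal machinery were accessible after the loss of Taf4, a subunit of TFIID. No library was replicated, so the variation between animals is unknown and no test was made. Where 3 values stand in a row without a group name, they belong to WT, 1 week and 5 weeks in that order.

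Pol II transcribes all protein-coding genes but does not find a start site by itself. TFIID, which holds TBP and the TAF proteins, binds the promoter, TFIIA and TFIIB join it, TFIIF brings in Pol II, and TFIIE and TFIIH complete the complex, after which the helicase of TFIIH opens the DNA. Mediator connects transcription factors bound at enhancers with this complex through head, middle and tail modules and carries a separable kinase module. Most of these genes are expressed in nearly every cell type, islet cells included, and such genes generally have promoters that stay open.

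All 53 members had a peak within their promoter window in the WT list, 36 had one at 1 week and all 53 had one at 5 weeks. The window covered the 1000 bp before and the 100 bp after each annotated start. Among all protein-coding autosomal genes 59.9% were called in WT, then 56.1% after 1 week and 66.7% after 5 weeks. Of the members with a WT promoter peak, 17 (32.1%, Wilson 95% interval 21.1% to 45.5%, counting error only) lacked one at 1 week, against 14.8% of all genes called in WT. At 5 weeks 0 of 53 members lacked the peak, with a counting interval up to 6.76%, against 1.82% of all genes. No member could gain a peak, since all had one in WT, and of all genes without a WT peak 12.7% gained one by 1 week and 19.7% by 5 weeks. By complex, the members without a peak at 1 week were 6 of 12 Pol II subunits, 3 of 5 TFIIH subunits and 8 of 28 Mediator subunits, while 0 of 8 members of TFIIA, TFIIB, TFIIE and TFIIF lacked one. That last count rested on weak 1 week peaks. Kept only from a -log10 q of 3 it was 3 of the 7 called in WT (Gtf2a2, Gtf2f1 and Gtf2f2), from 5 it was 4 of 7 with Gtf2e2 added, and with lists of equal number or scaled to the WT background 1 of 8 (Gtf2f2). The groups are small, and differences between complexes were not tested. Their counting intervals ran from 25.4% to 74.6% for Pol II and from 15.3% to 47.1% for Mediator. These treat genes as independent draws and cannot show whether the complexes differ.

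Estimated depth and peak quality moved with the groups, and their part in these results was not tested. As an estimate from the caller's values, the first percentile of the local background under a peak was 3.66 reads in WT, 6.45 in the 1 week library and 9.38 in the 5 week library. The estimate takes the fold and -log10 p of a peak to come from 1 read count and 1 background, which was not checked. The lists held 60898, 150354 and 151725 peaks on the chromosomes used. The 1 week list had fewer promoters called from more peaks, with a median -log10 q of 2.08 against 3.71 in WT. Peaks marked the promoters of 8 of 8 beta cell markers in WT and 7 of 8 at both Taf4 KO times, the exception being Slc2a2. Alpha cell markers had 3, 4 and 4 of 4, and delta cell markers 0, 1 and 2 of 2. The acinar, endothelial and stellate markers together had a peak for 0, 0 and 3 of 8 genes. The duct markers had 1, 0 and 1 of 2, and the immune markers 0, 1 and 0 of 2. In whole islets a change within cells and a change in the mix of cells cannot be told apart. The promoter of Taf4 itself (Taf4a in the annotation) was called in all 3 lists, with a -log10 q of 8.53, 1.32 and 8.01. A peak at the promoter does not measure a deletion within the gene, so this does not check the labels.

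The following stretches show promoters picked as examples of members without and with a 1 week peak. They run from 150 bases upstream to 20 bases downstream of the start nearest the WT peak. All are written 5′ to 3′ in the direction of transcription, from mm9 (NCBIM37). Capitals mark matches to common core and proximal promoter motifs. These are the GC box GGGCGG, the ETS motif CCGGAAG, the CCAAT box CCAAT, the NRF1 motif GCGCATGCG and the TATA box TATAAA, each searched on both strands. First are 5 promoters that were called in WT and at 5 weeks and had no peak at 1 week.
Polr2e: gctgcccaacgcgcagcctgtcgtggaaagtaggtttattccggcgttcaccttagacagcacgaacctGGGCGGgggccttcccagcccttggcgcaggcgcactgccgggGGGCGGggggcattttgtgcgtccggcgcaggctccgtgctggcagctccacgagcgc
Polr2f: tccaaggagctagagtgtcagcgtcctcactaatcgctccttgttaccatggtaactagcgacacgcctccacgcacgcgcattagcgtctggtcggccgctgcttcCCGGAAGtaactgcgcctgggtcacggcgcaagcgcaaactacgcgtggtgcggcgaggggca
Polr2j: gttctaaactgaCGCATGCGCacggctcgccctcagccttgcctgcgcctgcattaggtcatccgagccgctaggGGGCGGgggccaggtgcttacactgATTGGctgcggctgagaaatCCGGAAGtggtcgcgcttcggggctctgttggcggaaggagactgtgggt
Med20: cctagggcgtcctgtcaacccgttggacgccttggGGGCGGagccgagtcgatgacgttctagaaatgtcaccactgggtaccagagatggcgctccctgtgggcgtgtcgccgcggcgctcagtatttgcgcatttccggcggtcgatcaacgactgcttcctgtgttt
Med9: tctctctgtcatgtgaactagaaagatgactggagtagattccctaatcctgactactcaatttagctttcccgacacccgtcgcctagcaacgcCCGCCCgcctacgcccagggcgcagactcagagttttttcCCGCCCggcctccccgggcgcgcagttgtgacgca
They lie at chr10:79502416-79502585 (Polr2e, minus strand), chr15:78971631-78971800 (Polr2f, plus strand), chr5:136592422-136592591 (Polr2j, plus strand), chr17:47748381-47748550 (Med20, plus strand) and chr11:59761558-59761727 (Med9, plus strand).

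Next are the promoter of the largest Pol II subunit, Polr2a, which was called weakly at 1 week, and those of Med19, Med23 and Med30, which ranked among the strongest promoter peaks at 1 week.
Polr2a: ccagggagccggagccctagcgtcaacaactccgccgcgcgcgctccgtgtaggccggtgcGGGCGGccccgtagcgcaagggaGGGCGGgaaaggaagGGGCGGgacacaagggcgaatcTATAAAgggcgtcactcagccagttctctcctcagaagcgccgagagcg
Med19: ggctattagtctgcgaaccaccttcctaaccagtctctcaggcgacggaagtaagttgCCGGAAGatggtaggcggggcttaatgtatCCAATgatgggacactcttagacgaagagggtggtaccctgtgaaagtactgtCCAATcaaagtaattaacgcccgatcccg
Med23: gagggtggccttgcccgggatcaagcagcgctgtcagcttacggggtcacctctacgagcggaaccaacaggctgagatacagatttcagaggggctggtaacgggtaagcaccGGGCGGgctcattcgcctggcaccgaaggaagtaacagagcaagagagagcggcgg
Med30: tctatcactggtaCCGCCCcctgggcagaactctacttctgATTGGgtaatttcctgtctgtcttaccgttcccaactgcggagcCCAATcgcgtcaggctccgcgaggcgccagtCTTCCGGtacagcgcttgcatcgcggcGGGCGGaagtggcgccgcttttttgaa
They lie at chr11:69572120-69572289 (Polr2a, minus strand), chr2:84518409-84518578 (Med19, plus strand), chr10:24589642-24589811 (Med23, plus strand) and chr15:52543850-52544019 (Med30, plus strand). GC boxes stand in both sets. In the longer window from 250 bases upstream to 50 bases downstream, the GC box was found in 11 of the 17 members without a peak at 1 week and 22 of the 36 with one, against 67.8% of all promoters called in WT. The ETS motif was found in 8 of 17 and 10 of 36, or 18 of 53 members, against 17.9% of all such promoters. The CCAAT box, which is part of no other motif searched, was found in 19 of 53 members against 36.2%. The TATA box stood in 7 of 53 members, Polr2a among them, against 5.66%, and the NRF1 motif in 5 against 3.49%. The remaining motifs were YY1 (AANATGGCG), in 5 members against 5.43%, the E-box (CACGTG), in 6 against 9.97%, and the CRE (TGACGTCA), in 2 against 3.54%. A match is a description of the letters and not a bound site.

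Levels are given below as the fold over the local background and as the -log10 q of the strongest promoter peak. Because -log10 q grows with depth, each peak was also ranked among the strongest promoter peaks of all called genes of the same list, which is its gene percentile (50 is the middle gene). The median gene percentile of the members was 64.6 in WT, 48.7 over the 36 called at 1 week, and 55.2 at 5 weeks. The middle member thus stood above the middle gene in WT and close to it at 1 week, but not when peaks were kept only from a -log10 q of 5, where it stood at 59.7, 59.1 and 49.1. The median fold was 4.98, 3.32 and 3.91, against 4.30, 3.36 and 3.69 for all called genes. Ranked among all peaks of the list instead, promoter or not, the middle member stood at the 90.7, 87.5 and 91.3 percentile, and the middle called gene at 85.4, 88.0 and 89.8.

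**Figure D1:**
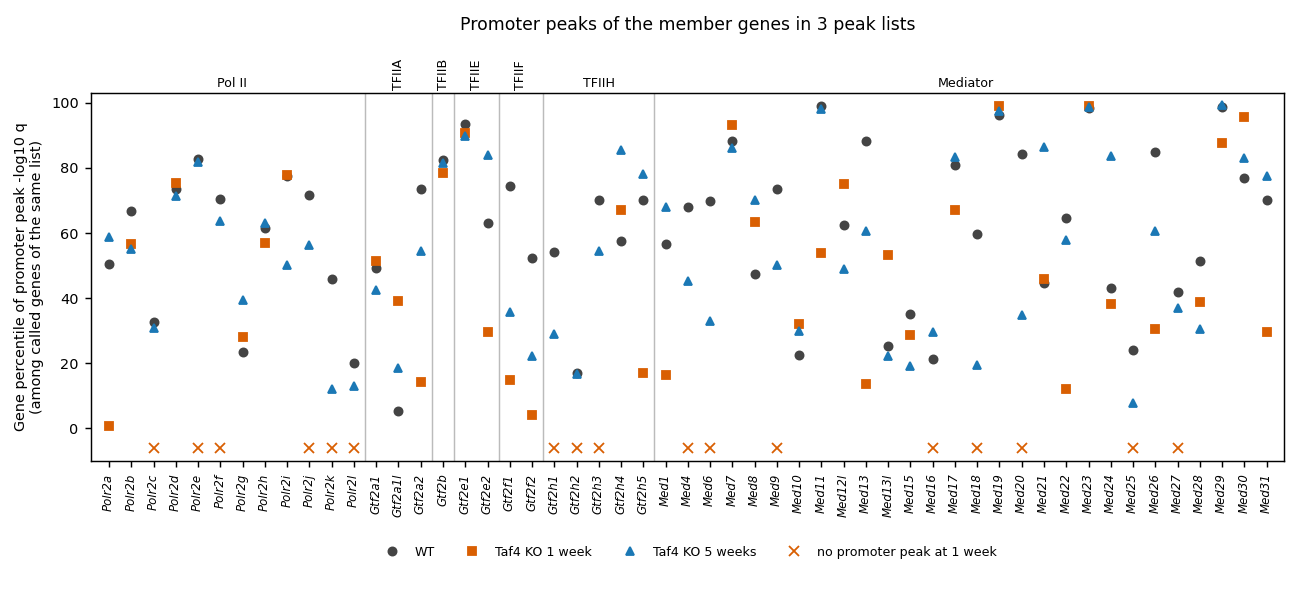
Gene percentile of the promoter peak of each of the 53 members (vertical axis, rank of -log10 q among called genes of the same list, in percent) in the WT (circles), Taf4 KO 1 week (squares) and Taf4 KO 5 weeks (triangles) lists, grouped by complex, with 1 library per group. Crosses below 0 mark the 17 members with no promoter peak at 1 week, which are 6 Pol II, 3 TFIIH and 8 Mediator genes with WT values from 16.9 to 84.3, below the 8 members with the highest WT values.

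Within Pol II, 6 of the 12 promoters had no peak at 1 week, and the catalytic subunit was barely called. Polr2a encodes the largest subunit, whose C-terminal repeats are phosphorylated during transcription. The -log10 q of its promoter peak was 12.3, 1.30 and 15.1, and the fold 3.73, 2.17 and 3.91. Its gene percentile was 50.5, 0.833 and 58.9, so at 1 week it stood near the bottom of all called promoters and at 5 weeks just above its WT rank. The WT peak spanned 1622 bp (chr11:69571533-69573154) and the 1 week peak 523 bp within it. Polr2b, the second largest subunit, changed less, with a -log10 q of 16.0, 7.12 and 14.2 and a gene percentile of 66.7, 56.6 and 55.2.

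The strongest WT peak of the complex was one of those not called at 1 week. Polr2e encodes a subunit that Pol I and Pol III also contain. Its promoter peak reached a -log10 q of 21.1 (fold 5.71) in WT, was absent at 1 week, and reached 22.1 (fold 5.28) at 5 weeks, where it stood at the 81.9 gene percentile against 82.8 in WT. Polr2f, another shared subunit, had a -log10 q of 17.1 in WT, no peak at 1 week and 16.3 at 5 weeks. Polr2j and Polr2c encode the pair of subunits that starts assembly of the enzyme. Polr2j had a -log10 q of 17.5 in WT and 14.5 at 5 weeks and Polr2c 8.57 and 8.68, each with no peak at 1 week. Polr2k and Polr2l encode small zinc-binding subunits. Polr2k had 11.3 in WT and 3.51 at 5 weeks, with folds of 5.30 and 2.53, and did not return to its WT rank (gene percentile 45.8 and 12.0). Polr2l had 5.71 in WT and 3.73 at 5 weeks.

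Of the 5 subunits that Pol I and Pol III share (Polr2e, Polr2f, Polr2h, Polr2k and Polr2l, a grouping made after the values were seen), 4 had no peak at 1 week, against 2 of the 7 that belong to Pol II alone. Polr2h was the shared subunit that kept its peak, with a -log10 q of 14.8, 7.16 and 16.2 and a width of 2057, 2124 and 2038 bp, and its window overlaps that of Clcn2. The stalk subunits Polr2d and Polr2g were called in every list. Polr2d had a -log10 q of 18.1, 10.2 and 18.5 and Polr2g 6.51, 3.84 and 10.6. Polr2i, a subunit with a role in start site choice and fidelity, kept its rank at 1 week (gene percentile 77.6 and 77.8) and stood at 50.2 at 5 weeks. Its 1 week peak spanned 327 bp, against 1374 bp in WT, and lay upstream of the start nearest the WT peak. The Polr2i window also overlaps that of another gene.

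**Figure D2:**
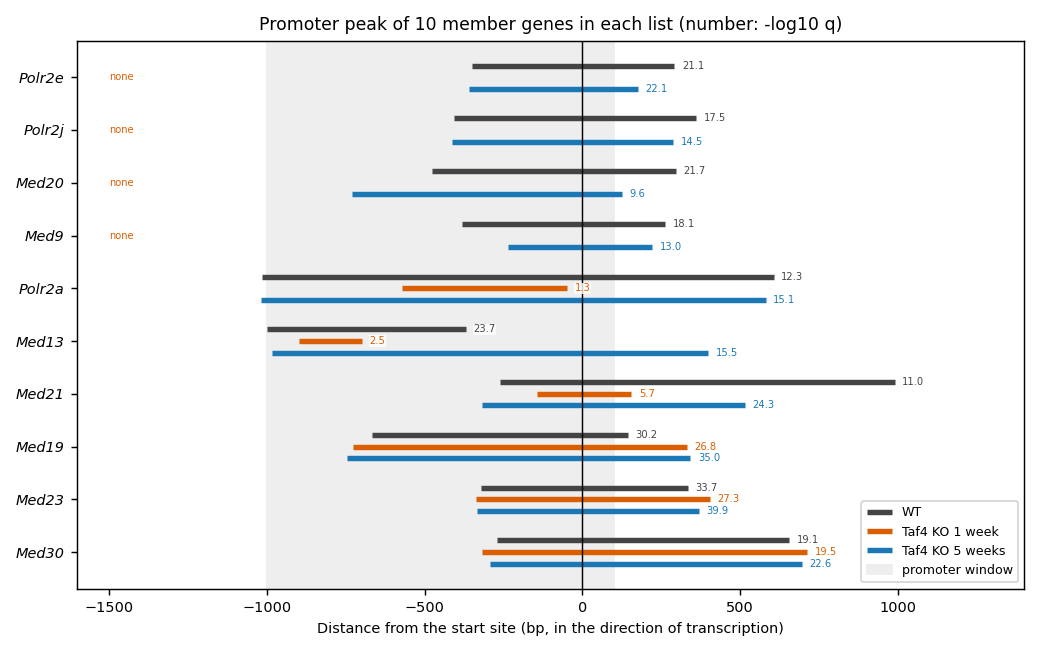
Extent of the strongest promoter peak of 10 members in each list, drawn as distance from the start site in bp in the direction of transcription, with 1 library per group. The number beside each bar is its -log10 q, the grey band is the promoter window, and the word none marks Polr2e, Polr2j, Med20 and Med9, which had no promoter peak at 1 week, while Med19, Med23 and Med30 had peaks of like extent in all 3 lists.

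The genes of TFIIA, TFIIB and TFIIE were called in all 3 lists, at levels that ranged widely. At 1 week the calls of Gtf2a2 and Gtf2e2 were lost under the stricter minimums given above. Gtf2a1l was not called in WT from a -log10 q of 3 or 5, nor at 1 week from 5. Gtf2b encodes TFIIB, which bridges TBP and Pol II. Its -log10 q was 21.0, 11.0 and 22.0, and its gene percentile was near constant at 82.6, 78.4 and 81.5. Gtf2e1, the large TFIIE subunit, had 27.3, 15.6 and 26.5, with a gene percentile of 93.6, 90.8 and 89.9, from a window that overlaps that of Rabl3. Its partner Gtf2e2 had 15.2, 4.02 and 23.0, so it stood at the 63.2 gene percentile in WT, 29.7 at 1 week and 84.0 at 5 weeks. The TFIIA genes went different ways. Gtf2a1 stayed near the middle, at a gene percentile of 49.2, 51.5 and 42.6, whereas Gtf2a2 stood at 73.6, 14.2 and 54.6 with a fold of 6.47, 2.61 and 4.18. Gtf2a1l, a paralogue of Gtf2a1 known from the germ line, had the weakest WT peak of the members, with a -log10 q of 2.27, and 4.97 and 5.46 at the later times.

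Both TFIIF genes, which encode the factor that escorts Pol II to the promoter, were low at 1 week, and neither was called there from a -log10 q of 3. Gtf2f1 reached a -log10 q of 18.4, 2.63 and 9.80, a gene percentile of 74.5, 14.8 and 35.8. Gtf2f2 had 12.6, 1.66 and 6.53, a gene percentile of 52.2, 4.22 and 22.1. Each was thus ranked lower at both Taf4 KO times than in WT, with the lowest value at 1 week.

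In TFIIH, 3 of the 5 member genes had no promoter peak at 1 week. Gtf2h1, Gtf2h2 and Gtf2h3 encode core subunits. Gtf2h3 had a -log10 q of 17.0 in WT and 14.1 at 5 weeks, Gtf2h1 13.03 and 8.24, and Gtf2h2 4.89 and 4.90. Gtf2h4, the core subunit that holds the XPB helicase, was called throughout with 13.8, 8.64 and 23.8, and its gene percentile was 57.5, 67.1 and 85.6. Gtf2h5, the smallest core subunit, had 17.0, 2.80 and 20.7, or the 70.3, 16.9 and 78.04 gene percentile. Of the TFIIH subunits with other symbols, the helicase genes Ercc2 and Ercc3 and the kinase genes Cdk7 and Ccnh were called in every list, and Mnat1, which assembles the kinase, had a -log10 q of 8.84 in WT, no peak at 1 week and 4.41 at 5 weeks. Ercc2 and Cdk7 were weak at 1 week, at the 12.0 and 6.0 gene percentile against 54.3 and 73.2 in WT.

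Mediator members without a peak at 1 week came from the head (3 of 7), the middle (2 of 9), the tail (2 of 5) and the unplaced subunits (1 of 4), and from the kinase module 0 of 3. In the head, Med18 and Med20 form a pair that sits on the outside of the module and Med6 lies near its joint with the middle, and none of these had a peak at 1 week. Med20 had a -log10 q of 21.7 in WT (chr17:47748055-47748826), no peak at 1 week and 9.55 at 5 weeks, and its gene percentile of 84.3 in WT and 34.7 at 5 weeks was the largest difference of the members at that time. Med18 had 14.3 in WT and 5.80 at 5 weeks, and Med6 16.9 and 9.17. Each of the 3 was thus ranked lower at 5 weeks than in WT, by 40.1 points of gene percentile for Med18 (59.7 and 19.6) and from 69.8 to 32.9 for Med6. The other head genes were called in every list. Med17, the scaffold of the head, had 20.5, 8.64 and 22.7, and Med8 11.7, 8.03 and 18.2. Med22 had 15.5, 2.38 and 14.8, and its window overlaps that of Rpl7a, a ribosomal protein gene. Med11 had the strongest WT peak of the members, 36.5, with 6.69 at 1 week and 37.4 at 5 weeks.

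In the middle module, Med4 and Med9 had no peak at 1 week. Med4 had a -log10 q of 16.4 in WT and 12.0 at 5 weeks, and Med9 18.1 and 13.03. Med1, the subunit contacted by nuclear receptors, had 13.6, 2.77 and 17.5, with folds of 5.02, 2.67 and 4.56. Med26, which links Mediator with elongation factors, stood at the 85.0 gene percentile in WT, 30.4 at 1 week and 60.7 at 5 weeks. Med31 stood at 70.2, 29.5 and 77.5. By contrast, Med7 (88.3, 93.2 and 86.0) and Med19 (96.3, 99.0 and 97.4) kept their places near the top. Med21 had 11.0, 5.72 and 24.3, a gene percentile of 44.5, 45.8 and 86.3, the largest rank above WT of a member at 5 weeks. Med10 stood at 22.4, 32.2 and 30.0.

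In the tail, which meets sequence-specific activators, Med16 and Med25 had no peak at 1 week and were weak in the other lists. Med16 had a -log10 q of 6.0 in WT and 8.40 at 5 weeks, and Med25 6.59 and 2.49. Med23 was the strongest tail promoter, with a fold of 8.85, 6.59 and 7.10 and a gene percentile of 98.4, 99.0 and 98.9. Med24 had 10.8, 4.89 and 22.9, with the same fold of 5.30 in WT and at 5 weeks, so that its rank differed by far more than its fold. Med15 stood at the 35.2, 28.7 and 19.1 gene percentile. Med19 and Med23 were the 2 members above the 90 gene percentile in all 3 lists.

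The kinase module showed both directions at 1 week. Med13, which links the kinase to the rest of Mediator, had the largest difference of any called member, with a fold of 6.92, 2.59 and 4.28 and a gene percentile of 88.3, 13.8 and 60.5. Its WT peak (chr11:86171474-86172102) was the 1 promoter peak of 53 that did not cover the start site, and the 1 week peak was 200 bp wide within it. Med13l stood at 25.3, 53.4 and 22.1, with a fold of 3.33, 3.54 and 2.89. Med12l stood at 62.3, 75.2 and 48.9. Both are long genes with many peaks inside them, 15, 10 and 19 peaks in Med13l and 13, 19 and 17 in Med12l. The kinase subunits with other symbols, Ccnc, Cdk8 and Cdk19, were called in every list, Ccnc at the 74.1, 97.6 and 91.0 gene percentile and Cdk8 at 80.6, 11.8 and 62.0. The X-linked Med12 and Med14 were called in every list too. Among the unplaced subunits, Med27 had a -log10 q of 10.5 in WT, no promoter peak at 1 week and 10.1 at 5 weeks, and 15, 5 and 16 peaks in the gene. Med29, whose window overlaps that of Paf1, had 35.3, 14.0 and 42.1, Med30 19.1, 19.5 and 22.6, and Med28 12.5, 4.95 and 8.59. Med30 was thus at the 76.9, 95.7 and 83.1 gene percentile.

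Measured against the fold of the same gene in WT, most called members were lower at both times, as were most genes. At 1 week 34 of the 36 members called in both lists had a lower fold than in WT, against 82.9% of all such genes, and the median log2 ratio was -0.44 against -0.29. At 5 weeks 44 of 53 members were lower, against 76.5%, with a median of -0.28 against -0.15. The gene percentile was lower at 1 week in 21 of 36 members, against 47.8% of all genes, and at 5 weeks in 34 of 53, against 38.0%. The 1 week ratio leaves out the 17 members without a peak. The comparisons share the WT list, so a WT value that is high by chance makes both ratios low.

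**Figure D3:**
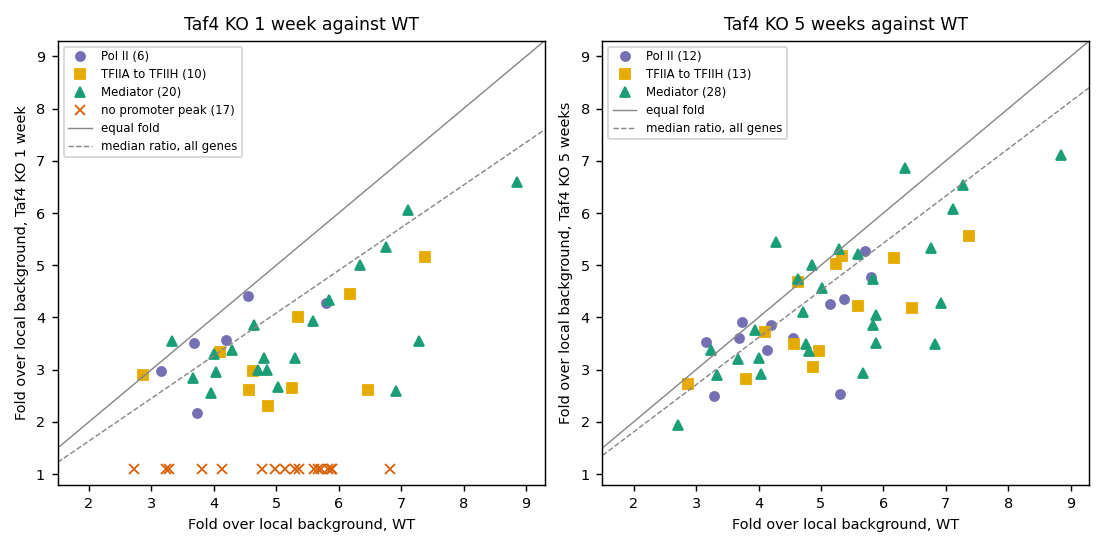
Fold over the local background of each member's promoter peak at 1 week (left) and at 5 weeks (right) against its fold in WT, by complex, with 1 library per group. Points below the solid line are lower than in WT (34 of 36 at 1 week, 44 of 53 at 5 weeks), the dashed line is the median ratio of all called genes, and crosses near the bottom of the left panel stand for the 17 members with no promoter peak at 1 week.

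The 17 members without a 1 week peak lay in GC-richer surroundings than the 36 with one, as did such genes in general. The median GC of the surrounding 1 Mb was 48.2% against 44.4%, and 47.4% against 44.5% over all genes. In the quintile of genes with the richest surroundings 10 of 17 members had no peak, against 30.9% of all genes there. In the other 4 quintiles it was 1, 3, 1 and 2 of 9 members each, against 2.90%, 7.70%, 11.3% and 21.0% of all genes, from the poorest up. The promoters themselves were alike in GC, with a median of 59.0% in the 17 and 58.8% in the 36. Over all genes the median was 59.7% without a 1 week peak and 63.3% with one.

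Genes with weak WT peaks lacked one at 1 week more often than genes with strong WT peaks, and the members had few weak ones. In the upper 2 quintiles of WT strength 8 of 30 members (26.7%, interval 14.2% to 44.4%) had no peak at 1 week, against 4.34% of all genes (221 of 5095). These 8 were Polr2e, Polr2f, Polr2j, Gtf2h3, Med4, Med6, Med9 and Med20. With both properties held together, 6 of 13 members with a strong WT peak and GC-rich surroundings (the upper 2 quintiles of each) had none, against 8.74% of all such genes. With a strong WT peak and poorer surroundings it was 2 of 17 members against 1.77%. With a weaker WT peak it was 6 of 13 against 36.0% in GC-rich and 3 of 10 against 11.3% in poorer surroundings. These cells hold few members, and no test was made.

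**Figure D4:**
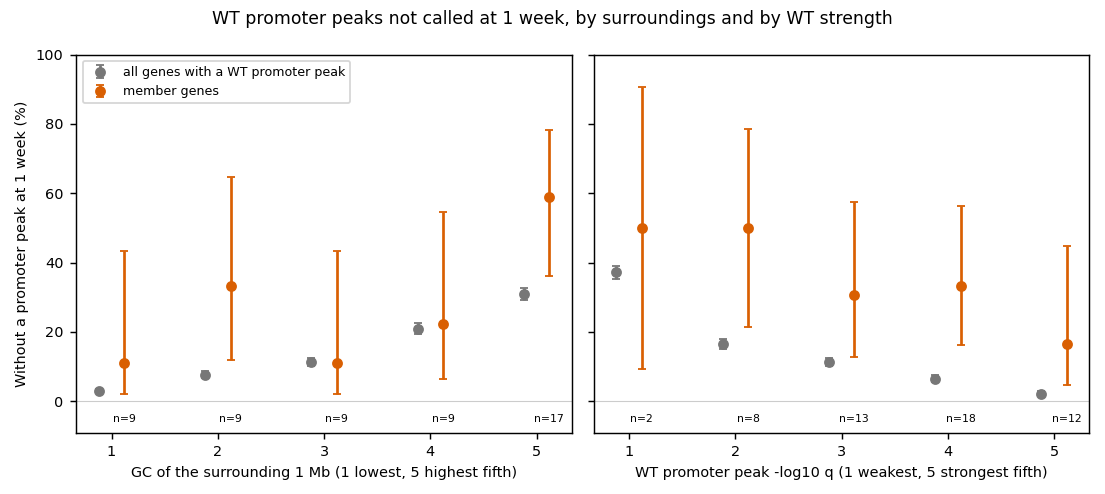
Share of the genes called in WT that were not called at 1 week (vertical axis, percent), by quintiles of the GC of the surrounding 1 Mb (left) and of the WT -log10 q (right), for all genes (grey) and members (orange, number below). Bars are Wilson 95% intervals for counting error only, and the highest GC quintile holds 10 of the 17 members without a peak.

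Neighbouring genes and other peaks were examined next to see how far an absent call extended. Summed over the 17 members, 87 of 328 other genes called in WT within 500 kb (26.5%) were not called at 1 week. Summed over the other 36 it was 127 of 492 (25.8%). A gene near more than 1 member, as around Polr2e and Med16, enters these sums more than once. Per member, the median was 25.0% for the 17 and 9.72% for the 36. Around Polr2a, which was barely called, it was 30 of 47 neighbours, and around Med11, which was called, 20 of 31. Polr2a and Med11 lie within 1 Mb of each other, so their neighbours can be the same genes. Around Med23 the count was 0 of 5 and around Med30 0 of 1. The nearest 1 week peak lay 3202 to 51685 bp from the WT promoter peak of the 17 members, with a median of 17306 bp, and was farther than 5000 bp for 15 of them. For the 36 called members a 1 week peak overlapped the WT promoter peak in every case, and a 5 week peak did so for all 53. These distances and overlaps were not counted over all genes, so they are not shown to be particular to the members. Of the kept members, 8 had a -log10 q under 3 at 1 week (Polr2a, Gtf2a2, Gtf2f1, Gtf2f2, Gtf2h5, Med1, Med13 and Med22), while 1 member was under 3 in WT (Gtf2a1l) and 1 at 5 weeks (Med25). With peaks kept only from 3 in every list, 48.1% of the members called in WT were not called at 1 week, against 21.4% of all genes.

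At 5 weeks the 17 members had their peaks again, with a lower median rank than in WT. Some of the 17 were not called at 5 weeks with the lists scaled to the WT background, or from a -log10 q of 5. Among members still called in WT, these were Med25, Polr2k and Polr2l both times. Gtf2h2 was called in no list from a -log10 q of 5. The median gene percentile of the 17 was 59.7 in WT and 32.9 at 5 weeks, with a fold of 5.30 and 3.49. Single members of the 17 stood anywhere from 7.91 to 81.9 at 5 weeks. For the other 36 it was 65.7 and 65.4, with a fold of 4.83 and 4.42. This split was not made over all genes, so it is not shown to be particular to the members. Polr2c, Polr2e, Gtf2h2 and Med27 stood within 5 points of their WT gene percentile at 5 weeks, and Med16 stood 8.18 points above it. The WT peaks of the 17 were narrower than those of the 36, with a median width of 671 bp against 902 bp. Widths were not split this way over all genes either.

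Of the 13 ways of counting, 3 could have added a call at 1 week, namely the wider window, any peak within 5000 bp of a start, and a Taf4 KO peak over the WT peak. Under these 16 of the 17 were still not called, and Med25 was called there only when any peak within 5000 bp of a start counted. Of the 36 called members, 19 were called at 1 week under all 13. The share of members without a peak was above that of all genes at 1 week in 13 of 13 ways. These ways recount the same 3 lists, and several return the same 17 of 53, so they are not independent of each other. It ranged from 30.2% against 15.0% of all genes (any peak within 5000 bp) to 62.7% against 35.8% (peaks kept only from a -log10 q of 5). With the lists scaled to the WT background it was 35.8% against 20.3% at 1 week and 5.66% against 6.41% at 5 weeks. At 5 weeks the share of members was above that of all genes in 2 of 13 ways. In 15 members the window overlaps that of another protein-coding gene (sharing a window), so a peak there may belong to either gene. Besides those named above, the partners included 2610024G14Rik and AC141469.5 (Polr2b), 1700088E04Rik (Polr2f), Tbcb (Polr2i), Tspan4 (Polr2l), 1700104B16Rik (Gtf2e2), Hps5 (Gtf2h1), Eif2b1 (Gtf2h3), Serac1 (Gtf2h5), Tmx2 (Med19) and Bysl (Med20). Leaving these 15 out left 12 of 38 without a peak at 1 week.

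**Figure D5:**
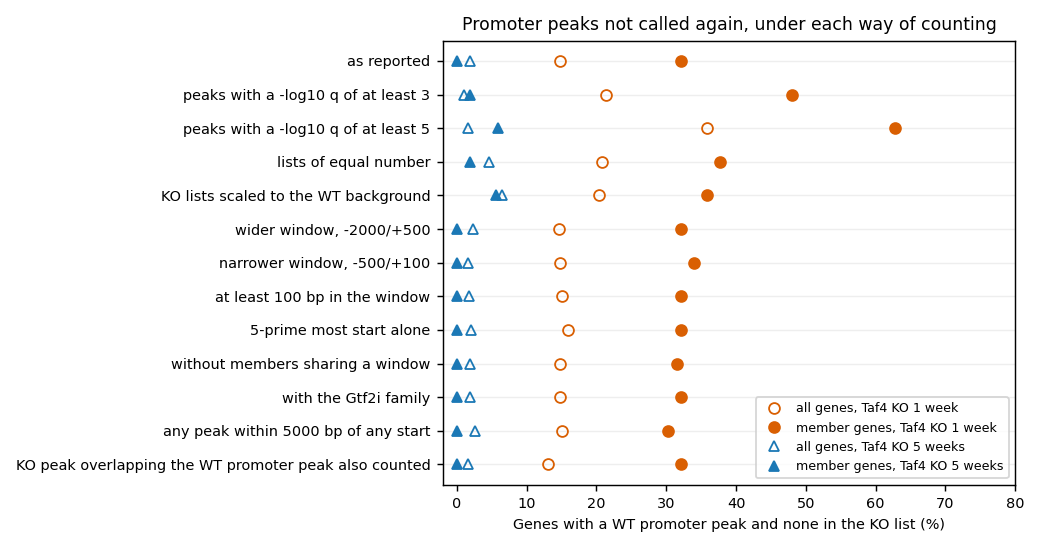
Share of genes with a WT promoter peak and none in the Taf4 KO list (horizontal axis, percent) under 13 ways of counting, for members (filled) and all genes (open) at 1 week (circles) and 5 weeks (triangles). At 1 week the members lie to the right of all genes in every row, from 30.2% to 62.7%, and at 5 weeks they lie between 0% and 5.88%.

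Other polymerase genes were set beside the members for scale. Of the Pol I subunits with symbols Polr1 and a letter, 5 of 5 were called in WT, 3 at 1 week and 5 at 5 weeks, Polr1a and Polr1c being absent at 1 week. Of the Pol III subunits (Polr3 and a letter), 10, 9 and 10 of 10 were called, Polr3a being absent. Of the 10 partners of the machinery under other symbols, Tbp and the elongation factor gene Tcea1 included, 10, 9 and 10 were called. The Gtf2i family, which has other functions despite its name, had 3, 2 and 3 of 3, Gtf2ird2 being absent at 1 week. With so few genes, the counts could not show whether these groups differ from the members.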

How the data were processed

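ATAC-seq was made from dissociated islet cells, with 1 library per group. Per the labels and methods, the authors aligned reads to mm9 with Bowtie 1.0.0, keeping unique alignments, and called broad peaks per library with MACS2 2.1.1. Any shift of reads for the transposase was not given in the sources used here. The deposited lists give each peak a fold over the local background (a ratio), a -log10 p and a -log10 q. The authors' whole-number score was not used. Read totals are not in the lists, so depth was estimated as the first percentile of a local background computed from fold and -log10 p. This takes both values of a peak to come from 1 read count and 1 background. Values that summarise a whole broad peak need not meet that assumption. Scaling to the WT background rests on the same estimate.

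Peaks were placed on NCBIM37 (mm9) with its GENCODE annotation, and 2 mitochondrial peaks per list were left out. A gene was called when a peak overlapped by at least 1 bp the window of 1000 bp before to 100 bp after any start of a protein-coding transcript. Of records sharing a symbol (1 member symbol, Med20, and 129 in all), the one whose coding start lay nearest its own 5′ end was used. Sequences were read from the same genome. Intervals are Wilson 95% intervals, which treat genes as independent draws and hold no variation between animals. The code was tested on simulated peaks. For the local background these were built under the assumption used to estimate it, so the test could not check that assumption. Python 3.11.15, numpy 2.4.6, pandas 2.3.3, scipy 1.17.1 and pysam 0.24.0 were used.

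The members and lists were chosen with earlier results of these data known. Named were members whose call differed between lists, the highest and lowest WT gene percentile per complex, the 5 largest differences each way at each time, members sharing a window and Taf4. Other members were added after their values were seen. Alternatives were -log10 q minimums of 3 and 5, lists of equal number (60898 peaks), scaling to the WT background, windows of 2000 bp before to 500 bp after and of 500 bp before to 100 bp after the start, 100 bp of overlap, the 5′-most start alone, leaving out members that share a window, adding the Gtf2i family, and centring on all genes. Counting any peak within 5000 bp, or a Taf4 KO peak over the WT peak, was added after seeing the data.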

Additional observations from a re-analysis of the deposited data

Results flagged for a closer look

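In 15 of the 36 members called in all lists the gene percentile lay on opposite sides of its WT value at 1 week and at 5 weeks, which is what flagged them. The share over all genes was not counted, so this is not shown to be particular to the members. With 1 library per group the differences between times were not tested, and many are small. In 9 members it was lower at 1 week and higher at 5 weeks. The points of difference from WT at the 2 times were -49.7 and 8.39 for Polr2a, -4.61 and 1.43 for Polr2h, -33.4 and 20.9 for Gtf2e2, and -53.4 and 7.75 for Gtf2h5. In Mediator they were -40.2 and 11.2 for Med1, -13.8 and 2.46 for Med17, -5.00 and 40.6 for Med24, -11.0 and 0.43 for Med29, and -40.7 and 7.37 for Med31. In 6 members it was higher at 1 week and lower at 5 weeks. These were Polr2d with 1.66 and -2.34, Polr2i with 0.23 and -27.4, Gtf2a1 with 2.39 and -6.54, Med7 with 4.88 and -2.33, Med12l with 12.9 and -13.4, and Med13l with 28.1 and -3.21.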

How the results depend on the processing

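No single value changed sign, but some orders between groups did. The median list percentile at 5 weeks was above WT as reported (91.3 against 90.7) and below it under the -log10 q minimums, equal number and scaling. With a minimum of 5 the 1 week median gene percentile (59.1) was above that at 5 weeks (49.1). The share of members not called at 5 weeks was below that of all genes as reported and above it with minimums of 3 (1.92% against 1.02%) and 5 (5.88% against 1.62%). Of the values for the members as a whole, 164 were classed as the same and 22 as moved. The first class held sizeable shifts too, such as 36 members called at 1 week as reported and 28 from a -log10 q of 3. Keeping only peaks from a -log10 q of 3, the median list percentile was 84.7, 66.2 and 78.9 in WT, 1 week and 5 weeks. From 5 it was 78.3, 67.4 and 71.1, the median 1 week fold was 4.01, and 19 members were called at 1 week, a change of -32, and of -2 at 5 weeks. With lists of equal number the Taf4 KO list percentiles were 72.7 and 78.6, and the 5 week change was -1. With scaling to the WT background they were 72.7 and 75.8, the 5 week change was -3, and the 5 week log2 fold ratio -0.40. Relative to all called genes the median fold was 1.16, 0.99 and 1.06, and the log2 ratio -0.15 at 1 week and -0.14 at 5 weeks. No paired analysis was possible because each group has 1 library, and no replicate could be left out. Estimated depth differs between the lists, and peak lists hold no reads, so a promoter without a peak may still have been open below the caller's threshold.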
